A study of Mus musculus with 4 samples.

Results

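Cardiomyocyte nuclei of uninjured mouse hearts are described here. They were chosen by a rule on marker transcripts in single-nucleus RNA libraries. A nucleus was counted as a member when it had at least 500 unique molecular identifiers (UMIs, each standing for a captured RNA molecule) and 300 detected genes, at most 10% mitochondrial UMIs, and at least 3% of its UMIs in 12 genes of the contractile cell (Ttn, Myh6, Ryr2, Actn2, Tnnt2, Myom1, Mybpc3, Fhl2, Ctnna3, Rbm20, Trdn and Corin). The rule found 2746 of the 10934 nuclei of uninjured hearts, in a series of 28216 nuclei. The study asked how a premature stop in Vegfa, made in mice by CRISPR/Cas9 editing after a variant of human VEGFA, affects the adult heart at rest and after myocardial infarction. The Q150X homeostasis group carried this allele and the WT homeostasis group was wild type, and neither had an infarction. Q150X and WT libraries made 3 days after infarction (3dpMI) held 469 and 1349 nuclei that met the same rule, and these serve as a comparison. Each of the 4 groups was 1 library of nuclei from heart tissue. The labels give neither the sex of the mice nor how many hearts went into a library, and they mark the Q150X libraries as "ho" without stating outright that both copies of the gene were edited. In the members, the female-specific transcript Xist had 1 UMI in Q150X and 0 in WT, and the Y-linked gene Uty had 761 and 855 UMIs.

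Cardiomyocytes shorten when thin filaments of actin, tropomyosin and troponin slide past thick filaments of myosin inside sarcomeres, which titin spans and Z discs border. Each beat starts with calcium entering through voltage-gated channels, which opens ryanodine receptors on the sarcoplasmic reticulum. The work is paid for mainly by oxidation of fatty acids in mitochondria, whose respiratory chain has subunits coded in the nucleus and in the mitochondrion. Cardiomyocytes also make VEGF-A, the growth factor that endothelial cells of the surrounding capillaries respond to. Nuclear RNA is rich in unspliced and nuclear-retained transcripts, so long genes and long non-coding RNAs take a large part of it.

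Members made up 1005 of the 6478 Q150X nuclei that passed the filters on UMIs, genes and mitochondrial share, or 15.5% (95% exact binomial interval 14.6 to 16.4), and 1741 of the 4381 WT nuclei, or 39.7% (38.3 to 41.2). The share in Q150X was 0.390 of that in WT (0.365 to 0.418). This ratio depended on the marker threshold and was 0.364 with at least 5% of UMIs in the rule genes and 0.219 with at least 10%. After infarction the shares were 5.78% in Q150X and 14.7% in WT, a ratio of 0.392 (0.354 to 0.433). All intervals given here are 95% intervals and cover counting error only. With 1 library per group there was no test, and genotype, animal, nuclei preparation and sequencing run cannot be told apart.

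The Q150X members held 3456565 UMIs, 37.6% of the UMIs of nuclei that passed, and the WT members held 3421354, or 58.3%. The totals were close, but they were spread over different numbers of nuclei. A Q150X member had a median of 2952 UMIs and 1273 genes, against 1513 UMIs and 733 genes in WT. Members under 1000 UMIs were 71 in Q150X, or 7.06%, and 472 in WT, or 27.1%. The median mitochondrial share was 0.30% in Q150X and 0.470% in WT. The 2 libraries shared 39 barcodes, 1 of them a member in both. Because of the difference in depth, comparisons of detection between the libraries were made on members thinned to 1000 UMIs each, and comparisons of levels are shown within classes of depth as well. Thinning left out the members under 1000 UMIs, so that 934 Q150X and 1269 WT members remained. Shares given after thinning cover these deeper members only.

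The threshold of 3% lay in a sparse range of the marker share. Between 3% and 4% lay 49 Q150X and 12 WT nuclei, with medians of 1161 and 1396 UMIs. Between 2% and 3%, just outside, lay 71 Q150X and 30 WT nuclei, with medians of 1022 and 785.5 UMIs. The strongest marker class other than cardiomyocyte took a median of 0.593% of UMIs in Q150X and 0.626% in WT just inside the threshold, and 0.948% and 0.808% just outside it. Typical members lay far above the threshold, with a median marker share of 8.72% in Q150X and 9.59% in WT, while the nuclei that were not members had medians of 0.395% and 0.257%.

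**Figure D1:**
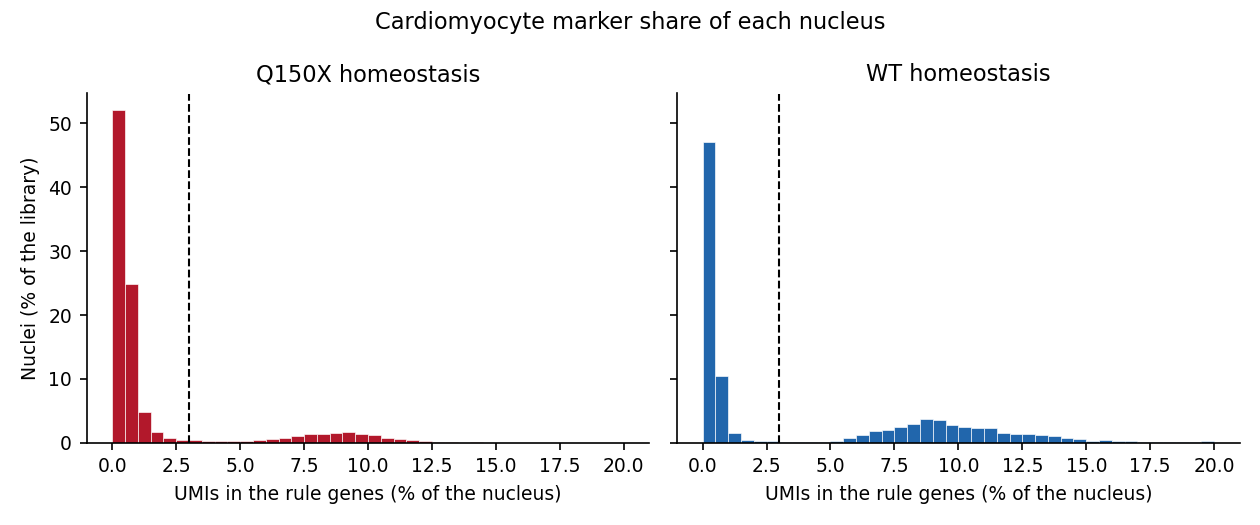
Share of each nucleus's UMIs that fell in the 12 rule genes (horizontal axis, in %) against the percentage of the library's nuclei in bins of that share (vertical axis), for Q150X homeostasis (left) and WT homeostasis (right). The dashed line is the 3% threshold; the hump of members centres near the medians of 8.72% in Q150X and 9.59% in WT, and it is smaller in Q150X (15.5% of nuclei that passed) than in WT (39.7%).

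The label was checked against markers of the parts of the heart. The atrial genes Myl7 and Bmp10 had 0 UMIs in the members of both libraries, Sln (an inhibitor of the calcium pump in atria) had 0 in Q150X and 1 in WT, and Myl4 had 8 and 5. No member of either library had more than 1% of its UMIs in the 7 atrial markers, and 598 of their 618 UMIs in Q150X and 670 of 687 in WT came from 1 gene, the potassium channel gene Kcnk3. Ventricular myosin light chain Myl2 had 1383 UMIs in Q150X and 1009 in WT, and the ventricular transcription factor gene Irx4 had 32 and 31. The 7 conduction system markers had 129 UMIs (37.3 CPM, UMIs scaled to a common total per library) in Q150X and 230 UMIs (67.2 CPM) in WT, against 32.4 and 40.9 CPM in the nuclei that were not members. Among them the pacemaker channel gene Hcn4 had 8 UMIs in Q150X and 9 in WT, the calcium channel gene Cacna1g had 45 and 57, the factor gene Tbx3 had 16 and 3, Cntn2, a marker of Purkinje fibres, had 1 and 15, and the sinus node factor gene Isl1 had 0 in both. The members thus carried ventricular markers, with Myl7, Bmp10 and Sln at or near 0 and conduction system markers low but not at 0.

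Markers of other cell types were low in the members but not at 0. Over 12 other classes with 71 markers, the summed level of a class ran from 2.60 to 1839 CPM in Q150X and from 0.292 to 1597 CPM in WT, with 9 markers at 0 UMIs in Q150X and 10 in WT. Fibroblast markers were the highest, at 1839 CPM in Q150X members and 1597 in WT members, against 8343 and 6670 CPM in the nuclei that were not members. Members with over 1% of their UMIs in another class numbered 15 in Q150X, or 1.49% (0.838 to 2.45), and 6 in WT, or 0.345% (0.127 to 0.749). The doublet caller Scrublet marked 110 Q150X members, or 10.9%, and 155 WT members, or 8.90%. Calls in Q150X were the highest scores at a preset rate and those in WT came from the automatic threshold, so the 2 shares cannot be compared. In the clustering described further on, 4 clusters with 600 members (21.8%) had summed markers of another class over 5-fold their level in all members, and the caller marked 43.5% of these nuclei against 0.186% of the rest. One of 232 members had vascular endothelial markers at 1700 CPM, one of 76 had macrophage or monocyte markers at 1788 CPM, and one of 75 had pericyte markers at 1559 CPM and smooth muscle markers at 523 CPM. The remaining one, of 217 members, passed by Schwann markers at 249 CPM but had far more of fibroblast markers, at 4065 CPM against 1146 to 1967 CPM in the other 11 clusters, and it was led by Adgrd1, Gfpt2, Dclk1 and Meg3. Counts over all genes are therefore given with and without those 4 clusters.

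The nuclear transcript Malat1 was the most abundant RNA of the members, with 124853 CPM in Q150X and 154484 CPM in WT. Titin (Ttn) followed with 36670 CPM in Q150X and 45126 in WT, the ryanodine receptor gene Ryr2 with 18108 and 20146, the L-type calcium channel gene Cacna1c with 13768 and 17140, dystrophin (Dmd) with 10689 and 11336, and the sodium-calcium exchanger gene Slc8a1 with 8898 and 7109. The 20 most abundant genes took 28.0% of UMIs in Q150X members and 32.4% in WT members. Of these 20, 14 had a lower CPM in Q150X and 6 a higher one, and none differed by 1.5-fold. The ratios of Q150X over WT ran from 0.740 (0.721 to 0.759) for Zbtb16, a zinc finger transcription factor gene, to 1.25 (1.23 to 1.27) for Slc8a1.

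Per kilobase of gene span the order of these genes was different. Malat1 stood at 20001 CPM per kb, averaged over the 2 libraries, and the alpha myosin heavy chain gene Myh6, which is short for a gene this abundant, at 202 CPM per kb. Ttn had 147 CPM per kb and the LIM protein gene Fhl2 had 92.8. Ryr2 had 34.5 CPM per kb and Dmd, which spans 2257 kb, had 4.88.

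Some genes outside the rule were confined mostly to the members, which is a description since the rule picked nuclei of this type. Tnni3k, a cardiac troponin-I-interacting kinase, had a level in members 69.2-fold that of the other nuclei in Q150X and 65.0-fold in WT. The orphan nuclear receptor gene Esrrb stood at 52.4-fold and 69.4-fold, and Chrm2, the muscarinic receptor through which the vagus nerve slows the heart, at 49.8-fold and 53.3-fold. Ppargc1a, a coactivator that drives mitochondrial genes, stood at 40.7-fold and 44.1-fold, and the potassium channel gene Kcnn2 at 44.4-fold and 53.5-fold. Fhod3 (a formin of the sarcomere), Mlip, Kcnd2 and Hs3st5 were also among the 10 genes with the highest such ratios. Between the genotypes these 10 genes differed little, with ratios of Q150X over WT from 0.745 (Kcnd2, a potassium channel of early repolarisation) to 1.15 (Ppargc1a).

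Over all genes, Q150X members were compared with WT members by summing UMIs in each library and scaling to the total. Over the 8145 genes with 50 UMIs or more in total, 1122 (13.8%) were at least 1.5-fold higher in Q150X and 149 (1.83%) at least 1.5-fold lower. The median log2 ratio over all these genes was 0.19. Scaled so that the median gene had a ratio of 1, the counts were 560 higher and 346 lower, so that 61.8% of the genes past 1.5-fold were higher in place of 88.3%. Without the 4 clusters that carried markers of another class, the counts were 719 higher and 170 lower. In the nuclei that were not members, 12.3% of 10715 genes were at least 1.5-fold higher in Q150X and 4.22% lower, with a median log2 ratio of 0.11. The 10 genes called highest and the 10 called lowest in what follows were ranked by the bound of the ratio nearest to 1, among genes at least as high in members as in the other nuclei of the library where they were higher. Log2 ratios of gene lists are given on the scale of total UMIs and are to be read against 0.19. Counts of a list's genes past 1.5-fold are to be read against the all-gene shares of 13.8% higher and 1.83% lower.

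The ratio varied with the length of the gene. Genes with a span under 5 kb had a median log2 ratio of 0.50 in the members, genes of 20 to 50 kb a median of 0.21, and genes of 200 kb and over a median of 0.05, and the 4 other classes of span fell between these in order. In the other nuclei the median was 0.29 for genes under 5 kb and 0.02 for genes of 200 kb and over. Short genes were thus on the whole further above WT than long genes, in members and in other nuclei alike.

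Genes of energy supply stood above the all-gene median. The list of nuclear-coded respiratory chain subunits had 36 measured genes, all with a ratio above 1, and 22 were at least 1.5-fold higher in Q150X members. Its median log2 ratio was 0.74, and it stayed between 0.55 and 0.98 under every alternative tried. Against genes of the same class of span, the median was 0.35 higher. The other nuclei gave the same picture, with 22 of 36 genes at least 1.5-fold higher and a median of 0.76.

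Several of these subunits were no more abundant in members than in the other nuclei of their library. Cox6a2, the heart and muscle form of a cytochrome oxidase subunit, had 232 UMIs (67.1 CPM) in Q150X members and 50 UMIs (14.6 CPM) in WT members, a ratio of 4.59 (3.37 to 6.37). In the other nuclei its level was 88.3 CPM in Q150X and 24.5 CPM in WT. After thinning, 8.89% of Q150X members and 1.58% of WT members had a UMI of Cox6a2, against 6.41% and 2.06% of the other nuclei, so that the WT share was no higher than that background. Cox8b, another muscle form of an oxidase subunit, had 158 UMIs (45.7 CPM) in Q150X and 46 UMIs (13.4 CPM) in WT, a ratio of 3.40 (2.43 to 4.83), and 2.83 in the other nuclei. Without the 4 mixed clusters its log2 ratio in members was 1.21 in place of 1.77. Ndufb9, a subunit of complex I, had 152 UMIs in Q150X and 54 in WT, a ratio of 2.79 (2.03 to 3.87), and 3.09 in the other nuclei. Cyc1, the cytochrome of complex III, had 132 and 50 UMIs and a ratio of 2.61 (1.87 to 3.69), against 1.69 in the other nuclei. At the low end, Ndufa10 had 281 UMIs in Q150X and 265 in WT, a ratio of 1.05 (0.884 to 1.25).

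The electron carrier gene Cycs had 131 UMIs in Q150X members and 52 in WT members, a ratio of 2.49 (1.80 to 3.51), and 2.34 in the other nuclei. The last 150 bases before its RefSeq start are printed because they hold a site for NRF1, the factor known for driving nuclear genes of the respiratory chain; the motif GCATGCGC was searched on both strands in the 250 bases before each start, and the match is in capitals.
Cycs promoter, GRCm38.p6, chr6:50566570-50566719, minus strand: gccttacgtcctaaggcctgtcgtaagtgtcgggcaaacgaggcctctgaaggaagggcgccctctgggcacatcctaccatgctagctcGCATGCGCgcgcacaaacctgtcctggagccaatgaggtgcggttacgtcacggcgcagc
Of 25 genes of the respiratory chain list with a promoter matched by symbol, 3 held the same letters at any of their listed starts. Of the 32851 promoters searched, with each start counted separately, 741 (2.26%) held them. The list was thus counted by gene and the background by promoter, so the 2 shares are not on the same scale.

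Fuel pathways differed less between the genotypes than the respiratory chain. In the list of fatty acid uptake and oxidation, 27 of 28 measured genes had a ratio above 1 and 8 were at least 1.5-fold higher, with a median log2 ratio of 0.44. Decr1, which processes unsaturated fatty acids in mitochondria, had 157 UMIs in Q150X and 75 in WT, a ratio of 2.07 (1.56 to 2.77), while the ratio in the other nuclei was 0.949. Echs1, the hydratase of beta-oxidation, had 74 and 37 UMIs, a ratio of 1.98 (1.32 to 3.02), and the carnitine transferase gene Cpt2 had 71 and 36, a ratio of 1.95 (1.29 to 3.00). The fatty acid transporter gene Slc27a1 had 850 and 876 UMIs and a ratio of 0.960 (0.873 to 1.06). In the citric acid cycle list, 6 of 21 genes were at least 1.5-fold higher and the median was 0.44; Idh3b had 178 UMIs in Q150X and 85 in WT, a ratio of 2.07 (1.59 to 2.72). In the glycolysis list, 6 of 19 genes were at least 1.5-fold higher and the median was 0.40, led by Gapdh with 132 and 51 UMIs and a ratio of 2.56 (1.84 to 3.61). These 3 lists had no gene at least 1.5-fold lower, and their medians stayed above the all-gene median when each was set against genes of the same class of span, by 0.22, 0.26 and 0.16. In the other nuclei the medians of the fatty acid, citric acid cycle and glycolysis lists were 0.38, 0.41 and 0.38, against 0.11 for all genes. The higher ratios of these lists were thus not particular to the members.

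The creatine system carries energy from mitochondria to myofibrils. Its muscle kinase Ckm had 243 UMIs (70.3 CPM) in Q150X members and 97 UMIs (28.4 CPM) in WT members, a ratio of 2.48 (1.95 to 3.17), and 3.86 in the other nuclei. The mitochondrial kinase Ckmt2 had 2343 UMIs in Q150X and 1391 in WT, a ratio of 1.67 (1.56 to 1.78), and the ATP carrier gene Slc25a4 had 707 and 369, a ratio of 1.90 (1.67 to 2.16). In all, 5 of 15 genes in the list of mitochondrial carriers and the creatine system were at least 1.5-fold higher, with a median log2 ratio of 0.41 in members and 0.66 in the other nuclei.

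Regulators of these pathways did not follow them. The list of metabolic transcription regulators had a median log2 ratio of 0.03 over 23 genes, below the all-gene median and as low as -0.16 with scaling by the median gene, with 0 genes at least 1.5-fold higher and 1 lower. That gene was Rxra, a partner of many nuclear receptors, with 116 UMIs in Q150X and 208 in WT, a ratio of 0.552 (0.436 to 0.696). The fatty acid receptor gene Ppard had 367 and 529 UMIs, a ratio of 0.687 (0.599 to 0.786), and Klf15, a regulator of metabolic rhythms, had 257 and 354, a ratio of 0.719 (0.610 to 0.846). Ppargc1a had 11241 UMIs in Q150X and 9682 in WT, a ratio of 1.15 (1.12 to 1.18), and the related receptor gene Rora had 6415 and 5220, a ratio of 1.22 (1.17 to 1.26).

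In the sarcomere, the thin filament stood out by a few short genes. Of 21 genes of the thin filament and Z disc, 7 were at least 1.5-fold higher in Q150X members and 0 lower, and the median log2 ratio was 0.27, only 0.08 above the median of all genes. Cardiac actin (Actc1) had 872 UMIs (252 CPM) in Q150X and 262 UMIs (76.6 CPM) in WT, a ratio of 3.29 (2.87 to 3.80). Skeletal actin (Acta1), which the fetal heart uses, had 42 and 10 UMIs and a ratio of 4.16 (2.05 to 9.29). Tropomyosin 1 (Tpm1) had 2042 and 1037 UMIs and a ratio of 1.95 (1.81 to 2.10), and cardiac troponin C (Tnnc1) had 599 and 295 and a ratio of 2.01 (1.75 to 2.32). The long gene of the formin Fhod3, which organises actin in the sarcomere, had 11634 and 14175 UMIs and a ratio of 0.812 (0.793 to 0.833).

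The nuclei that were not members gave ratios of 3.24 for Actc1, 5.37 for Acta1, 1.79 for Tpm1 and 2.83 for Tnnc1. The level of Actc1 in members was only 1.33-fold that in the other nuclei in Q150X and 1.30-fold in WT. That of Ttn was 17.5-fold and 39.5-fold, but Ttn is a gene of the rule, so its ratio is set in part by the choice of members. After thinning, 22.1% of Q150X members and 6.30% of WT members had a UMI of Actc1, against 14.2% and 4.53% of the other nuclei. Actc1 transcripts were thus found in nuclei outside the members of both libraries, and their part in the ratio of the members was not tested.

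In the list of the thick filament and M band, 2 of 14 genes were at least 1.5-fold higher, against 13.8% of all genes. The median log2 ratio of the list was 0.23. The ventricular light chain Myl3 had 800 UMIs (231 CPM) in Q150X and 350 UMIs (102 CPM) in WT, a ratio of 2.26 (1.99 to 2.57), and 3.20 in the other nuclei. Beta myosin heavy chain (Myh7), the slow fetal form, had 429 and 254 UMIs, a ratio of 1.67 (1.43 to 1.96). Myh6, the adult form and a gene of the rule, had 18856 and 15895 UMIs, a ratio of 1.17 (1.15 to 1.20), and Ttn had a ratio of 0.813 (0.807 to 0.819). Among the 12 rule genes, 7 were higher and 5 lower in Q150X, none by 1.5-fold.

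The promoters of Actc1, Acta1 and Myl3 are printed because each holds a CArG box, the site of serum response factor, which is known to drive contractile genes. The last 150 bases before each RefSeq start are given in GRCm38.p6, with the CArG box in capitals.
Actc1 promoter, chr2:114052876-114053025, minus strand: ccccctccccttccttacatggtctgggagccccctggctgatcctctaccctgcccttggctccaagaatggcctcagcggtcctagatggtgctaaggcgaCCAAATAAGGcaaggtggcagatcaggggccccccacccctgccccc
Acta1 promoter, chr8:123894776-123894925, minus strand: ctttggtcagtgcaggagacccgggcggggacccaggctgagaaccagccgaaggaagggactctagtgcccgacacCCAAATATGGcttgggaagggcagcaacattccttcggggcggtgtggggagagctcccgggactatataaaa
Myl3 promoter, chr9:110763528-110763677, plus strand: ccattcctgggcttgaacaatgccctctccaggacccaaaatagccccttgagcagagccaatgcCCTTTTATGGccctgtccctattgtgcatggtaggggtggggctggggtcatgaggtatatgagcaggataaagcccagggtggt
Among the 10 genes with the highest ratios, 7 had a promoter matched by symbol, and 3 of these held the box at any listed start. So did 4 of 17 genes of the thin filament and Z disc list and 0 of 25 of the respiratory chain list. Of the 32851 promoters searched, with each start counted separately, 482 (1.47%) held it. The sets were counted by gene and the background by promoter, so their shares are not on the same scale. A match is a stretch of letters in this window and says nothing of binding in these hearts.

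Sorbs2os, a non-coding gene annotated opposite to the Z disc gene Sorbs2, was the one gene among the 10 with the highest ratios that differed in the members and not in the other nuclei. It had 301 UMIs (87.1 CPM) in Q150X members and 76 UMIs (22.2 CPM) in WT members, a ratio of 3.92 (3.04 to 5.11), and 0.974 in the other nuclei. After thinning, 6.10% of Q150X members and 2.44% of WT members had a UMI of it, against 0.307% and 0.274% of the other nuclei. Among members of 500 to 1000 UMIs the ratio was 1.29 (0.0273 to 11.5), with 1 UMI in Q150X and 5 in WT. It was 1.55 (0.574 to 3.84) at 1000 to 2000 UMIs, with 8 and 16 UMIs. At 2000 to 4000 UMIs it was 2.94, with a lower bound of 1.96. Within members of 4000 UMIs and over the ratio was 4.13 (2.65 to 6.74). The ratio thus rose with depth, and its interval included 1 in both classes under 2000 UMIs. At 3dpMI the ratio of Q150X over WT was 1.97. No source at hand states whether strand was used in counting, so reads from Sorbs2 and its antisense partner cannot be told apart.

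The machinery of calcium handling was close to the all-gene median. In the list of excitation-contraction coupling the median log2 ratio was 0.14 over 17 genes, which turned to a value of -0.05 when the median gene was set to a ratio of 1, and 1 gene was at least 1.5-fold higher. That gene was Hrc, a calcium-binding protein of the sarcoplasmic reticulum, with 191 UMIs in Q150X and 92 in WT, a ratio of 2.05 (1.59 to 2.66). The calcium pump gene Atp2a2 had 12836 and 10543 UMIs, a ratio of 1.21 (1.17 to 1.24). Cacna1c had a ratio of 0.803 (0.794 to 0.813), its beta subunit gene Cacnb2 one of 0.837 (0.814 to 0.861) and Ryr2 one of 0.899 (0.889 to 0.909).

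Ion channel genes were the lowest of the 25 lists, with a median log2 ratio of -0.05 over 20 genes, 0 genes at least 1.5-fold higher and 2 lower. The median was 0.24 below that of all genes, and below it under every alternative tried, while the list's own median ran from -0.24 to 0.10 over the alternatives. One of these was Fgf12, a partner of sodium channels, with 15 UMIs (4.34 CPM) in Q150X and 53 UMIs (15.5 CPM) in WT and a ratio of 0.280 (0.147 to 0.504). A cluster of 69 members led by Sema3a, described further on, held 42 of the 53 WT UMIs of Fgf12 and 2 of the 15 in Q150X.

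Of the other genes with the lowest ratios, Rp1, known as a microtubule protein of photoreceptors, had 104 UMIs in Q150X and 219 in WT, a ratio of 0.470 (0.369 to 0.596), and 1.02 in the other nuclei. Ush1c, a scaffold protein known from hair cells, had 68 and 144 UMIs, a ratio of 0.467 (0.345 to 0.628), and was lower in the other nuclei as well, at 0.426. Rgs6, which shortens muscarinic signalling, had 2030 and 3138 UMIs, a ratio of 0.640 (0.605 to 0.677), and Gse1 had 2402 and 3966, a ratio of 0.599 (0.570 to 0.631). Bik, Sned1, Pcdhga3 and Sema3a were also among the 10 lowest, with ratios from 0.352 (Sema3a) to 0.621 (Sned1). At 3dpMI, where 9.5% of 11006 genes were at least 1.5-fold higher in Q150X members and 10.3% lower, 8 of the 10 genes with the lowest ratios were again below 1 and 5 were at least 1.5-fold lower in Q150X; of the 10 genes with the highest ratios, 7 were again above 1 and 4 were at least 1.5-fold higher.

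Genes that join cells and anchor the sarcomere stayed within 1.5-fold by CPM. Of 15 intercalated disc genes and 15 genes of the dystrophin complex and costamere, none was past 1.5-fold in either direction, with median log2 ratios of 0.10 and 0.17 that were both below the median of all genes. At the ends of the first list, beta-catenin (Ctnnb1) had 199 UMIs in Q150X and 266 in WT, a ratio of 0.740 (0.613 to 0.893), and the virus receptor and adhesion gene Cxadr had 213 and 156, a ratio of 1.35 (1.09 to 1.67). Among 18 RNA-binding and splicing regulators none was past 1.5-fold either; Rbm20, the splicing factor of titin and a gene of the rule, had 15347 and 18127 UMIs and a ratio of 0.838 (0.820 to 0.856).

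Among 18 cardiac transcription factors, 1 was at least 1.5-fold higher in Q150X and 0 lower, and the median log2 ratio was 0.05, which is below that of all genes and negative when the median gene was set to a ratio of 1. The exception was Mef2c, a factor of muscle genes, with 663 UMIs in Q150X and 392 in WT, a ratio of 1.67 (1.48 to 1.90), against 0.961 in the other nuclei. Tead1, a partner of the Hippo pathway, had 3042 and 3303 UMIs, a ratio of 0.912 (0.868 to 0.958). Of 19 genes of adrenergic, muscarinic and cyclic nucleotide signalling, 2 were higher and 1, Rgs6, was lower; the 2 higher genes were the inhibitory G protein gene Gnai2 (84 and 47 UMIs, ratio 1.77) and the kinase gene Prkaca (70 and 46 UMIs, ratio 1.51).

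Vegfa, the gene edited in the Q150X mice, was expressed in the members at 3031 UMIs (877 CPM) in Q150X and 2380 UMIs (696 CPM) in WT, a ratio of 1.26 (1.19 to 1.33). The count is of all Vegfa transcripts and cannot tell the edited sequence from the normal one. Members had 12.7-fold and 13.4-fold the level of the other nuclei, which were at 68.8 CPM in Q150X and 51.9 CPM in WT. After thinning, which left out members under 1000 UMIs, 54.0% of Q150X members (50.7 to 57.2) and 45.6% of WT members (42.9 to 48.4) had a UMI of Vegfa. In the other nuclei, thinned in the same way, the shares were 7.07% and 5.21%. Scaled by the median gene the ratio was 1.11. At 3dpMI it was 1.23 (1.17 to 1.29), with 689 CPM in Q150X and 561 CPM in WT.

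The ratio of Vegfa was not the same at every depth. Among members of 500 to 1000 UMIs it was 0.856 (0.603 to 1.19), with 41 UMIs in Q150X and 309 in WT. It was 1.11 (0.952 to 1.29) at 1000 to 2000 UMIs, 1.44 (1.31 to 1.58) at 2000 to 4000 UMIs and 1.23 (1.12 to 1.36) at 4000 UMIs and over. The intervals lay above 1 in the 2 deeper classes, which held 437 and 295 of the Q150X members and 455 and 155 of the WT members.

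Other genes of the VEGF system were much sparser. Vegfb had 120 UMIs in Q150X members and 48 in WT members, a ratio of 2.47 (1.76 to 3.53), and 4.56 in the other nuclei. Vegfc had 56 and 33 UMIs, a ratio of 1.68 (1.07 to 2.67). The VEGF receptor genes Flt1 and Kdr, known for endothelial expression, had 229 and 60 UMIs in Q150X and 134 and 34 in WT, with ratios of 1.69 (1.36 to 2.11) and 1.75 (1.13 to 2.74), while the ratios in the other nuclei were 0.572 and 0.440. Vascular endothelial markers as a list, which includes both genes, were at 259 CPM in Q150X members and 192 CPM in WT members, with 0 of 8 markers at 0 UMIs, and their part in the receptor counts was not tested. Of 13 measured growth factors and other ligands, 2 were at least 1.5-fold higher and 2 lower, Sema3a and Slit3, which code for axon guidance proteins. Of 22 receptors, 5 were at least 1.5-fold higher and 0 lower. Over all genes, 13.8% were at least 1.5-fold higher and 1.83% lower. Of 15 genes of the hypoxia response, 2 were at least 1.5-fold higher: the collagen prolyl hydroxylase gene P4ha2 with 192 UMIs in Q150X and 113 in WT (ratio 1.68) and the mitochondrial gene Higd1a with 62 and 39 (ratio 1.57). Egln1 and Egln3, oxygen sensors of the same pathway, had ratios of 0.924 and 0.969.

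Stress genes were mostly low in both libraries. Nppb, the B-type natriuretic peptide that rises with wall stress, had 90 UMIs (26.0 CPM) in Q150X and 37 UMIs (10.8 CPM) in WT, a ratio of 2.41 (1.62 to 3.63), and 2.88 in the other nuclei. After thinning, 2.36% of Q150X members and 0.788% of WT members had a UMI of it, against 0.571% and 0.549% of the other nuclei. Nppa, the atrial peptide, had 10 and 9 UMIs. In the stress and fetal list 4 of 14 genes were at least 1.5-fold higher and 0 lower, and the median log2 ratio was 0.20. The 4 were Acta1, Nppb, Myh7 and the small heat shock protein gene Cryab, which had 222 UMIs in Q150X and 124 in WT and a ratio of 1.77 (1.42 to 2.23). Xirp2, an actin-binding gene of the same list, had 2034 and 2449 UMIs and a ratio of 0.822 (0.775 to 0.872).

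Chaperones had 6 of 16 genes at least 1.5-fold higher in Q150X, with a median log2 ratio of 0.42; against genes of the same class of span the median was 0.05 higher. Hsp90ab1 led with 253 UMIs in Q150X and 118 in WT, a ratio of 2.12 (1.70 to 2.66), against 1.06 in the other nuclei. Of 16 clock genes, 4 were at least 1.5-fold higher, among them Bhlhe40, a repressor in the clock loop, with 75 and 36 UMIs and a ratio of 2.06 (1.37 to 3.16), while Clock itself had 385 and 492 UMIs and a ratio of 0.775 (0.676 to 0.887). Of 20 genes of proteolysis and autophagy, 4 were at least 1.5-fold higher. Immediate early genes could hardly be measured, with 4 of 18 genes at 50 UMIs or more and none past 1.5-fold.

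**Figure D2:**
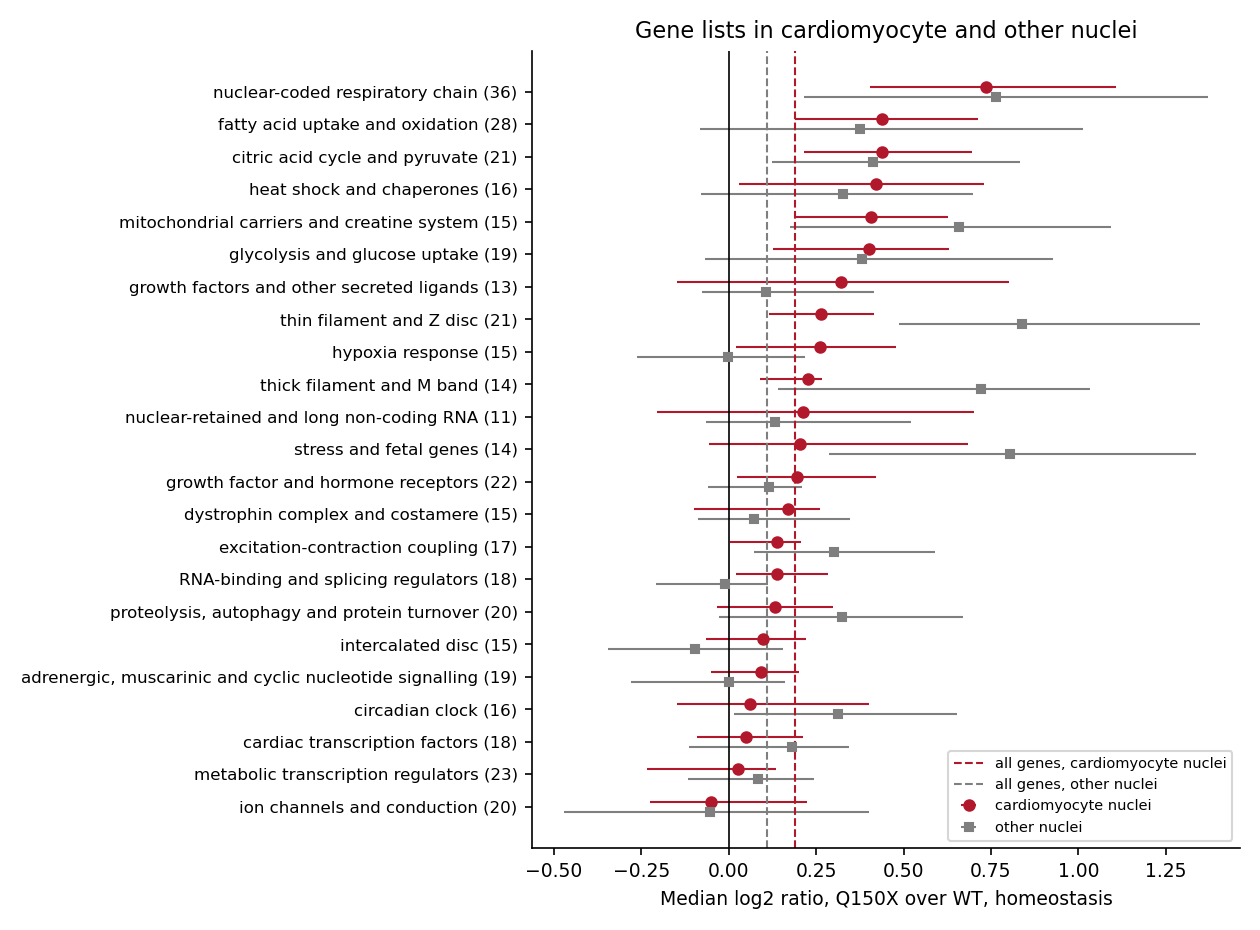
Median log2 ratio of Q150X over WT (horizontal axis) for gene lists with at least 10 measured genes, in cardiomyocyte nuclei (red circles) and in the other nuclei (grey squares); bars run from the median lower to the median upper counting bound of the list's genes, the number of genes measured in cardiomyocyte nuclei is in brackets, and dashed lines mark the medians of all genes, 0.19 and 0.11. The respiratory chain is highest in cardiomyocyte nuclei at 0.74, and ion channels are lowest at -0.05; thin filament genes are at 0.27 in cardiomyocyte nuclei and 0.84 in the other nuclei.

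The lists were set against depth, since Q150X members were the deeper ones. Within members of 500 to 1000, 1000 to 2000, 2000 to 4000, and 4000 and more UMIs, the median log2 ratio of the respiratory chain was 1.29, 1.03, 0.82 and 0.42, over 4, 19, 30 and 32 genes that had enough UMIs. The list of fatty acid genes had 0.60, 0.40, 0.40 and 0.29, and that of all genes -0.06, 0.17, 0.09 and 0.11. Actc1 had ratios of 8.97 (5.90 to 13.7), 5.03 (3.76 to 6.77), 3.71 (2.89 to 4.81) and 2.85 (2.18 to 3.77). The respiratory chain and Actc1 were thus above WT in each class of depth, and further above it the shallower the nuclei.

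Malat1 showed the opposite order. Its ratio of Q150X over WT was 0.443 (0.429 to 0.458) among members of 500 to 1000 UMIs, 0.676 (0.668 to 0.684) at 1000 to 2000, 0.816 (0.810 to 0.821) at 2000 to 4000 and 0.860 (0.854 to 0.865) at 4000 and over. Ttn had 0.573 (0.549 to 0.599) in the shallowest class and 0.960 (0.947 to 0.973) in the deepest. Shallow Q150X members thus held a smaller share of the nuclear-retained Malat1 than shallow WT members. The same order for Ttn is a description only, since Ttn is a gene of the rule and its share helped to pick the members.

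**Figure D3:**
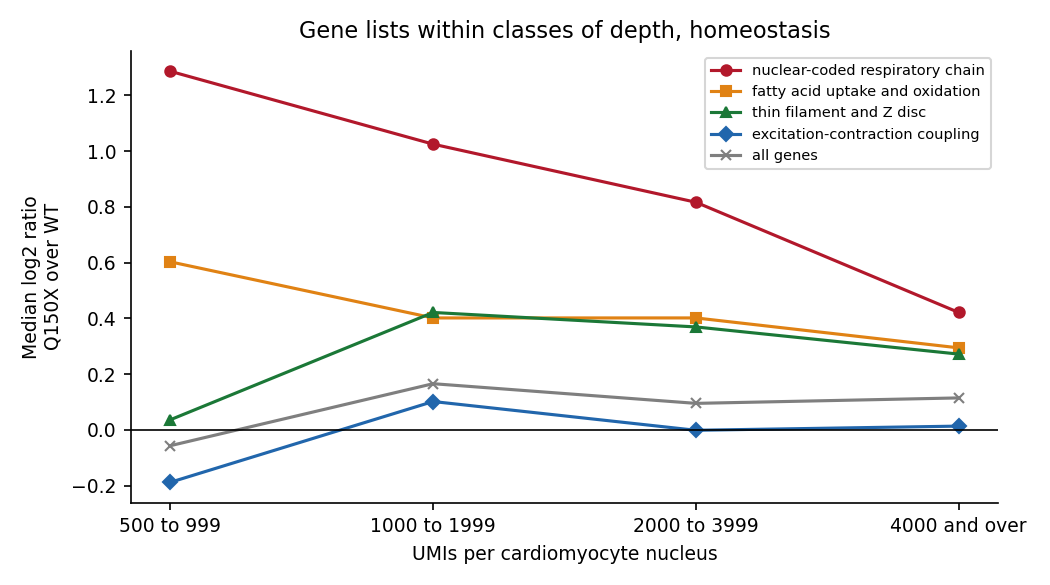
Median log2 ratio of Q150X over WT (vertical axis) for 4 gene lists and for all genes, within 4 classes of UMIs per cardiomyocyte nucleus (horizontal axis, shallow to deep). The respiratory chain lies above all genes in each class, at 1.29 (4 genes) in the shallowest and 0.42 (32 genes) in the deepest; excitation-contraction coupling lies below all genes in each class.

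The members were clustered by their own variable genes into 12 clusters, taken from both libraries together, and the clusters are given by number of members and leading genes only. A cluster of 440 was led by Gphn and the mitochondrial tRNA synthetase gene Lars2, with a median of 931.5 UMIs, the lowest of all. A cluster of 377 had Rp1, Pfkfb1, Fgf14 and the vessel growth factor gene Angpt1 among its first 10 genes, and one of 199 was led by the prolactin receptor gene Prlr, with Ces1d and Angpt1. A cluster of 291 was led by Ryr3, Kctd16 and Fstl4, with the cell adhesion gene Cdh4 and the stretch-responsive gene Ankrd1, and one of 239 by Cdh4, with Fstl4 and Mapk4. A cluster of 249 was led by the respiratory chain genes Uqcr11, Cox6a2, Cox4i1, Uqcrc1 and Atp5b. A cluster of 282 was led by Camsap1 and Gipc2, which stood 1.78-fold and 1.60-fold above the rest of the members.

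The level of Vegfa differed among these clusters. It was 1001 CPM in the cluster led by Ryr3 and 1000 CPM in that led by Cdh4, 653 CPM in that with Rp1 and Pfkfb1, 728 CPM in that led by Prlr, and 382 CPM in the cluster of 69 led by Sema3a. As Vegfa was among the genes clustered, these levels are a description. The genes that led the clusters were found in both libraries. After thinning, shares with overlapping intervals were those of Cdh4, which had a UMI in 9.10% of Q150X members and 8.83% of WT members, Fstl4 in 8.89% and 9.06%, Ankrd1 in 6.53% and 5.59%, Angpt1 in 14.8% and 14.7%, and Fgf14 in 34.4% and 35.6%. Prlr was found more often in Q150X, in 3.21% of members (2.18 to 4.55), than in WT, in 1.42% (0.843 to 2.23). Uqcr11 was found in 5.25% of Q150X members (3.91 to 6.88) and 1.26% of WT members (0.722 to 2.04), close to the 4.48% and 1.92% of the other nuclei. Gphn was found less often, in 69.2% of Q150X members (66.1 to 72.1) and 89.8% of WT members (88.0 to 91.4), as it was in the other nuclei, at 80.9% and 97.9%. Ryr3 was too sparse to compare, with a UMI in 0.214% of thinned Q150X members and 0.394% of WT members, where 3 nuclei would be 0.321% and 0.236%. In members of 4000 UMIs and over it had 49 UMIs in Q150X and 3 in WT, a ratio of 7.69 (2.48 to 38.6). Without thinning only 10 Q150X members and 16 WT members of any depth had a UMI of Ryr3. That interval counts UMIs as independent and leaves out the spread between so few nuclei, so the ratio is no measure of the genotypes. Angpt1 was about as frequent in the other Q150X nuclei, at 14.4%, and less frequent in the other WT nuclei, at 9.60%.

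Rp1 differed between the libraries on this scale too. It had a UMI in 2.46% of thinned Q150X members (1.57 to 3.67) and in 5.44% of WT members (4.25 to 6.83), against 0.439% and 0.274% of the other nuclei. Without thinning the shares were 5.17% in Q150X and 7.52% in WT.

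**Figure D4:**
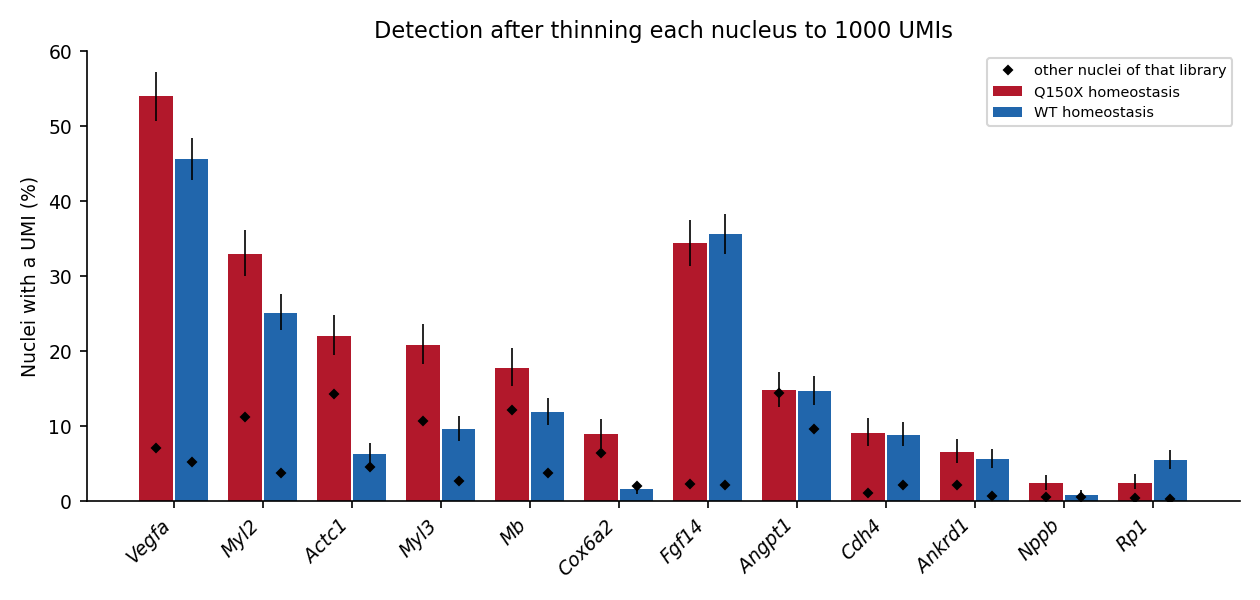
Percentage of nuclei with at least 1 UMI of a gene after thinning each nucleus to 1000 UMIs (vertical axis), in Q150X members (red bars, 934 nuclei) and WT members (blue bars, 1269 nuclei), with 95% exact binomial intervals; diamonds show the other nuclei of that library, thinned in the same way. Vegfa, Actc1 and Myl3 are higher in Q150X members (54.0%, 22.1% and 20.9%) than in WT members (45.6%, 6.30% and 9.61%), Rp1 is lower (2.46% and 5.44%), and the diamonds for Actc1 (14.2% and 4.53%) lie below the bars but far above 0.

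The smallest cluster, 69 members or 2.51%, was led by Sema3a, Ephb1, Slit3 and Slit2, which code for ligands and a receptor of axon guidance, with Rp1, Rgs6 and Fgf14 among its first 10 genes. Its conduction system markers summed to 187 CPM, against 15.6 to 96.0 CPM in the other 11 clusters. Cntn2 made up most of this with 13 UMIs in 8 nuclei of the cluster, against 3 UMIs in all other members. Within the cluster Cacna1g had 4 UMIs, Hcn4 had 2, and Tbx3, Shox2 and Isl1 had 0. None of these genes was among its first 10, and the cluster is left unnamed. Its size depended on the resolution of the clustering, which gave 69 members at 0.3 and at 1, and 24 members at 0.5. After thinning, 5 of 934 Q150X members, or 0.535% (0.174 to 1.24), and 25 of 1269 WT members, or 1.97% (1.28 to 2.89), had UMIs of at least 2 of these 4 guidance genes. Without thinning the shares were 3.58% in Q150X and 3.22% in WT. The other nuclei of both libraries also carried these genes, with Slit3 in 34.2% of Q150X and 27.2% of WT nuclei.

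For several genes with low ratios, many of the WT UMIs lay in this cluster. It held 71 of the 76 WT UMIs of Sema3a and 0 of the 27 in Q150X, 60 of 97 and 5 of 48 for Ephb1, 182 of 400 and 16 of 193 for Slit3, and 58 of 219 and 7 of 104 for Rp1. As the cluster was found by these genes, ratios without it would be fixed in part by that choice, and these counts are a description. It held 5 of the 144 WT UMIs of Ush1c, 99 of 3966 of Gse1, 3 of 90 of Bik and 2 of 53 of Pcdhga3.

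Members of uninjured hearts were then set against members of infarcted hearts within each genotype. Infarcted members were deeper, with medians of 6983 UMIs in Q150X and 5995 in WT. In Q150X, 12.0% of 8985 genes were at least 1.5-fold higher at homeostasis than at 3dpMI and 26.5% were lower; in WT, 4.58% of 10691 genes were higher and 38.2% lower. Over the 8973 genes measured in both genotypes, 284 (3.17%) were higher in both and 1752 (19.5%) lower in both. After thinning to 1000 UMIs these counts were 139 higher and 446 lower. The medians over all genes were -0.17 in Q150X and -0.41 in WT, and lists are to be read against them. The ratios of Q150X and of WT share no library with each other, but each shares its homeostasis library with the genotype comparison above.

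Of the lists with at least 10 measured genes, metabolic regulators stood highest at homeostasis in both genotypes. Ppargc1a had 3252 CPM in Q150X and 2830 CPM in WT at homeostasis, against 474 and 872 CPM at 3dpMI, which is 6.86-fold (6.52 to 7.22) in Q150X and 3.25-fold (3.15 to 3.35) in WT. In its list, 9 of 23 genes in Q150X and 5 of 24 in WT were at least 1.5-fold higher at homeostasis, with median log2 ratios of 0.43 and 0.19. On nuclei thinned to 1000 UMIs the medians were 0.31 and 0.18; in Q150X hypoxia genes (0.31 over 11 genes) were then level with them, and clock genes (0.41 over 8) and nuclear-retained RNA (0.46 over 7) above. Ppara, the receptor that turns on fatty acid oxidation in heart, was 2.80-fold and 2.15-fold higher. Ugp2, which makes the precursor of glycogen, had 719 CPM in Q150X and 506 CPM in WT at homeostasis, against 131 and 137 CPM at 3dpMI, or 5.51-fold and 3.69-fold.

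The fuel genes themselves did not follow in both genotypes. The list of fatty acid genes had a median of 0.33 in Q150X and -0.51 in WT, and the respiratory chain 0.07 in Q150X and -0.75 in WT. Relative to the all-gene medians these were 0.50 and 0.24 above in Q150X, and 0.10 and 0.34 below in WT. On thinned nuclei fatty acid genes were 0.22 above in Q150X and 0.19 below in WT, while the respiratory chain was at the all-gene median in Q150X (-0.05 against -0.04) and 0.53 below in WT. Atp2a2, the calcium pump gene, had 3714 CPM in Q150X and 3082 CPM in WT at homeostasis, against 1915 and 3584 CPM at 3dpMI, so that it was 1.94-fold higher at homeostasis in Q150X and 0.860-fold in WT.

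Other genes high at homeostasis were of varied kinds. Dct, known as a pigment cell enzyme, had 28.9 CPM in Q150X and 30.4 CPM in WT at homeostasis, against 2.25 and 2.37 CPM at 3dpMI. Adcy8, an adenylyl cyclase, was 5.80-fold and 4.85-fold higher, the phosphodiesterase gene Pde10a 8.06-fold and 4.33-fold, and Rp1 6.70-fold and 3.75-fold. The long non-coding gene Lncbate10 had 185 UMIs in Q150X and 120 in WT at homeostasis, against 1 and 14 UMIs at 3dpMI, a ratio of 22.2 (12.7 to 41.8) in WT and of 191 in Q150X with an interval from 33.8 to 7570.

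The genes with the lowest ratios of homeostasis over 3dpMI were ones known from injury. Several were at or near 0 in uninjured members, while Ankrd1 was expressed in them. Sprr1a, a stress gene of the injured heart, had 0 UMIs in both homeostasis libraries, against 371 UMIs in Q150X and 129 in WT at 3dpMI, and was at least 120.0-fold lower in Q150X and at least 16.6-fold lower in WT, taking 3 counts per library as the floor. Spp1 (osteopontin) also had 0 in both, against 284 and 208 UMIs, at least 91.9-fold and 26.8-fold lower. In the nuclei of infarcted hearts that were not members, Spp1 stood higher than in members, at 282 CPM in Q150X and 110 in WT, and Sprr1a lower, at 3.37 and 1.49 CPM. Nppa had 10 UMIs in Q150X and 9 in WT at homeostasis, against 621 and 658 at 3dpMI, 60.3-fold and 28.3-fold lower. Ankrd1 had 71.7 CPM in Q150X and 62.5 CPM in WT at homeostasis, against 1119 and 773 CPM, 15.6-fold and 12.4-fold lower. Tnc, Timp1, Lox and Serpina3i had 0 to 2 UMIs in each homeostasis library; for Tnc, a matrix protein of wound borders, the ratio was 0.0155 (0.00186 to 0.0571) in Q150X and 0.00520 (0.000131 to 0.0291) in WT. Nrxn3 and the matrix gene Fn1 were 29.7-fold and 16.0-fold lower in Q150X and 34.3-fold and 17.5-fold lower in WT. Tnc, Timp1, Lox and Fn1 stood higher in the other nuclei of infarcted hearts than in the members, by CPM, in both genotypes, with Tnc at 671 and Fn1 at 881 CPM in other Q150X nuclei and 561 and 563 in WT. Markers of immune cells moved with these genes: macrophage or monocyte markers in the members summed to 125 CPM in Q150X and 63.7 in WT at homeostasis, against 231 and 180 at 3dpMI, and neutrophil markers to 2.60 and 0.292, against 24.7 and 7.69. Fibroblast markers in the members were at 1839 and 1597 CPM at homeostasis, against 1594 and 1744 at 3dpMI, and the part of these markers in the results was not tested.

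The stress and fetal list as a whole was lower at homeostasis in every measured gene, with 15 of 16 in Q150X and 13 of 16 in WT at least 1.5-fold lower and median log2 ratios of -2.07 and -1.35. On thinned nuclei the medians were -1.98 and -1.28 over 13 genes each. Immediate early genes had 9 of 11 and 8 of 12 genes at least 1.5-fold lower. Thin filament and Z disc genes had a median of -0.69 in Q150X and -0.62 in WT, with 11 of 21 at least 1.5-fold lower in each. Across the 25 lists, without thinning, 11 lay above the all-gene median in both genotypes, 7 below in both and 7 on opposite sides. Of these 7, only the fatty acid list stayed on opposite sides on thinned nuclei, at 0.22 in Q150X and -0.19 in WT relative to all genes. The thick filament, dystrophin, respiratory chain, mitochondrial carrier and RNA-binding lists then lay below in both, and the growth factor and ligand list above in both. The citric acid cycle list moved to opposite sides, at 0.15 and -0.18.

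**Figure D5:**
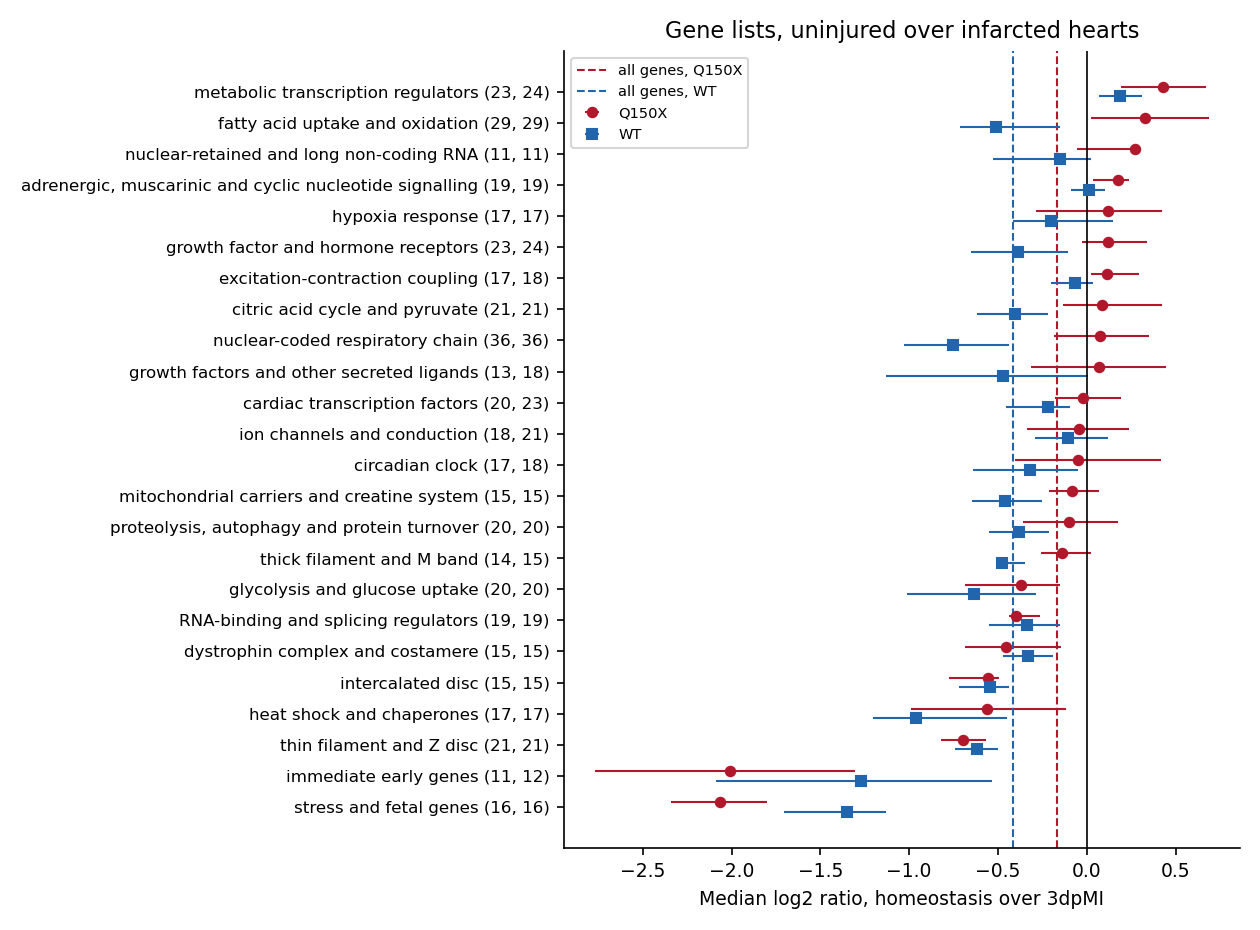
Median log2 ratio of homeostasis over 3dpMI (horizontal axis) for gene lists with at least 10 measured genes in cardiomyocyte nuclei of Q150X (red circles) and WT (blue squares); bars run between the median counting bounds of the list's genes, brackets give the genes measured in Q150X and WT, and dashed lines mark all genes at -0.17 in Q150X and -0.41 in WT. Stress and fetal genes are lowest at -2.07 in Q150X and -1.35 in WT, metabolic transcription regulators highest at 0.43 and 0.19, and the respiratory chain lies apart at 0.07 in Q150X and -0.75 in WT.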

How the data were processed

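Nuclei from hearts were profiled with a droplet kit that reads the 5′ end of transcripts and counts UMIs, per the labels' protocols. The values the authors deposited are raw UMI counts by gene and nucleus in filtered matrices. Per the file headers, Cell Ranger 7.1.0 wrote them; Scanpy and the build GRCm39 are named in the submitters' processing notes. Read numbers per library were not at hand, and depth is given as UMIs. From the counts, members of the cell type rule were summed per library and scaled to CPM, and ratios were given with exact conditional binomial intervals, levels with exact Poisson intervals and shares with exact binomial intervals. No test was run, since each group was 1 library. Genes needed 50 UMIs over both libraries compared, and genes past 1.5-fold were counted. The intervals of the ratios were tested on counts simulated for each gene from the summed members, with known changes put in. The choice of members, doublet calls, thinning, clustering and the spread between nuclei were not part of that simulation. Doublets were called with Scrublet and kept; where its automatic threshold marked under 0.5% of over 5000 nuclei, as in 2 libraries, the highest scores were taken at a rate of 0.8% per 1000 nuclei. Members were clustered with scanpy 1.11.5 and leidenalg 0.10.2 (2000 variable genes, 20 components, 15 neighbours, resolution 1). Gene spans came from GENCODE M21 and were used as lengths only, with a span for 8059 of the 8145 genes (98.9%); promoters came from RefSeq on GRCm38.p6, so no coordinate is on the build of the counts.

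Named genes were the 20 most abundant, the 10 highest and the 10 lowest ratios of Q150X over WT by the bound nearest to 1, among genes at least as high in members as in other nuclei of the library where the gene was higher, the 10 highest ratios of members over other nuclei, up to 3 genes at each end of each list, the leading genes of clusters, the 10 highest and the 10 lowest ratios of homeostasis over 3dpMI, and Vegfa with the rule genes, leaving mitochondrial, ribosomal, sex-linked and haemoglobin genes and unnamed gene models out of the rankings; genes named beyond these (Atp2a2, Ppara, Kcnk3, Myl2 and other markers) were chosen for their role with their values in view. There were 25 lists of 506 genes, of which 501 were in the files; 3 listed symbols with more than 1 feature (Aldoa, Atp5o and Nrg1) were left out. A few genes that the rule names are not reported here. Members and lists were chosen with earlier results of these data known. Alternatives were other thresholds, weights, scalings and filters, and sets of nuclei left out.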

Additional observations from a re-analysis of the deposited data

Results flagged for a closer look

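For 2 gene lists and 2 genes among those with the highest or lowest ratios, the ratio of Q150X over WT and its counting bounds lay on one side of 1 in cardiomyocyte nuclei of uninjured hearts and on the other side after infarction. The medians of 7 other lists also had opposite signs, with bounds that were not on opposite sides. The difference between the conditions was not tested, since each was 1 library per genotype. The median log2 ratio of the fatty acid uptake and oxidation list was 0.44 at homeostasis, where 8 of 28 genes were at least 1.5-fold higher, and -0.40 at 3dpMI, where 5 of 29 were at least 1.5-fold lower. That of the thick filament and M band list was 0.23 at homeostasis and -0.10 at 3dpMI, where 1 of 15 genes was at least 1.5-fold higher and 1 lower. The bounds of a list are the medians of its genes' bounds. For this list at homeostasis they were 0.09 and 0.27, which include the all-gene median. The list also holds rule genes such as Ttn and Myh6, whose share helped to pick the members in each library, so its values are a description. Ckm had a ratio of 2.48 at homeostasis and 0.830 at 3dpMI. Myl3 had a ratio of 2.26 at homeostasis and 0.808 at 3dpMI. Relative to the median of all genes, which was 0.19 at homeostasis and 0.03 at 3dpMI, the thick filament list was 0.04 above and 0.13 below.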

How the results depend on the processing

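Over 15 alternatives, 44 of 69 recomputed summary values and 355 of 375 list medians stayed within the range set for them. None of the 69 changed direction, but 41 of the list medians took the other sign, in 14 of 25 lists; 10 of these did so with scaling by the median ratio. The 11 lists that kept their sign against 0 under every setting include the respiratory chain, the fuel pathways, the thin and thick filaments, and stress genes. Relative to the all-gene median of each setting, stress genes ran from -0.11 to 0.23 and the thick filament list from 0.001 to 0.17. The respiratory chain ran from 0.47 to 0.75 on that scale. Of 462 values of single genes, 368 stayed. In 13 values of 6 genes the ratio took the other side of 1, at a threshold of 10% for Ryr2 (log2 ratio 0.07), Ctnna3 (0.18) and Corin (0.26). The share of cardiomyocyte nuclei in Q150X over WT was 0.364 with the marker threshold at 5%, 0.219 at 10% and 0.458 with at least 1000 UMIs. The number of genes at least 1.5-fold higher in Q150X was 555 with the threshold at 10%, 1702 with nuclei weighted equally, 562 thinned to 1000 UMIs, 560 scaled by the median ratio, 2123 with at least 20 UMIs per gene, 230 with at least 200, and 719 without the clusters carrying markers of another class, a choice made after seeing the data. The number lower was 225 with equal weights, 96 thinned, 230 scaled without the 20 most abundant genes, 346 scaled by the median ratio, 431 with at least 20 UMIs and 28 with at least 200. The ratio of Vegfa was 1.14 with the threshold at 10%, 1.18 with equal weights, 1.18 without the 20 most abundant genes in the scaling, 1.11 scaled by the median ratio, and 1.33 in nuclei of 1000 to 4000 UMIs, chosen after seeing the data. The median over the 10 genes with the highest ratio of members over other nuclei, taking the lower library, was 43.4, and 27.9 and 1.91 with thresholds of 5% and 10%, since nuclei under the threshold then count as other nuclei. Genes past 1.5-fold in both genotypes between uninjured and infarcted hearts were 139 higher and 446 lower after thinning. The log2 ratios of Fgf12 and Sema3a were 0.19 and 2.38 without the cluster led by Sema3a, and for Sema3a this follows from how the cluster was found; other causes of change were not tested. No paired analysis was possible because each group was 1 library. Few UMIs limit genes such as Acta1, Fgf12 and Nppa, and 4 of 18 immediate early genes could be measured.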
